A study of Mus musculus with 6 samples.

Results

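Transcripts of 8 CHCH-domain genes and of both mitochondrial pyruvate carrier genes were followed in mouse dorsal root ganglia, 10 genes of the 55809 gene symbols counted. The genes were Chchd1, Chchd2, Chchd3, Chchd4, Chchd5, Chchd6, Chchd7, Chchd10, Mpc1 and Mpc2. Chchd2 and Mpc2 were chosen because they passed the test between prenatal stress and control pools in these same libraries, and the other 8 were taken by name as their relatives. All 10 passed the low-count filter of the test, each with at least 410 counts in every library.

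The ganglia came from 8-week-old C57BL6J offspring, and each library was a pool of 3 mice, 9 mice per group by the series design. Both sexes were used. The 3 control pools came from offspring of dams left undisturbed, and the 3 prenatal stress pools from offspring of dams that had been restrained in tubes under bright light 3 times a day for 30 min. The restraint ran from embryonic day 13 to 18 by the labels' protocol, and the series design gives slightly later days. No pool carries a label for sex or litter, so p-values measure the spread between pools, which may be smaller than that between litters.

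Many proteins with a CHCH domain (coiled-coil-helix-coiled-coil-helix) carry paired cysteines that are joined into disulfide bonds in the space between the mitochondrial membranes. The oxidoreductase that makes these bonds, and so traps such proteins there, is itself a member of the family, Chchd4. Not all members stay in that space, and Chchd1 is a protein of the mitochondrial ribosome. Pyruvate made by glycolysis in the cytosol crosses the inner mitochondrial membrane through a carrier built from Mpc1 and Mpc2, which feeds the citric acid cycle. Sensory neurons of the ganglion support very long axons and rely on mitochondrial respiration.

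The libraries held 51.7 to 87.4 M gene counts. Levels are CPM (counts scaled to library size) with TMM library scaling. In all, 10 neuronal markers summed to 18463 to 19053 CPM in control pools and 17746 to 18872 CPM in stress pools, and 8 satellite glia markers to 3177 to 3527 and 2839 to 3114 CPM, so markers of the labelled tissue were abundant in all 6 pools. Of the satellite glia markers 0 passed the edgeR test, against 0.129% of all genes tested. An unadjusted p under 0.05 was found for 4 of them, all lower, where 5.11% of all genes were lower at that p. At the same p, 1 neuronal marker was higher and 2 were lower, 1 Schwann cell marker was lower, and 10 of 12 skeletal muscle markers were lower. The summed levels of Schwann cell, adipocyte, macrophage, oligodendrocyte and red cell markers overlapped between groups. The 12 skeletal muscle markers summed to 3248 CPM in control pool 3 and to 79.4 to 129 CPM in the other 5 pools. In bulk tissue, fewer cells of a type and less RNA per cell cannot be told apart.

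Chchd2 has close copies elsewhere in the mouse genome, and their sequences bear on what a Chchd2 count is. The 462-base coding sequence of Chchd2 aligned over its whole length with the processed pseudogenes Chchd2-ps (6 differences, 98.7% identity) and Gm12350 (5 differences, 98.9%). It also aligned over 451 bases with the neighbouring gene Zbed5 (7 differences, 98.4%). The pseudogenes Gm6222 and Gm4995 were less alike, at 97.1% and 93.5%. The stretch from coding base 6 to 65 holds as many differing positions as any stretch of 60 bases that aligned without gaps, and is shown 5′ to 3′ from GENCODE M21 transcripts. Capitals in the Chchd2 line mark bases at which at least 1 of these copies differs, and capitals in a copy mark its own differing bases.
Chchd2: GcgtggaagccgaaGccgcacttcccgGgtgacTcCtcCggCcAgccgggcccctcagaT
Chchd2-ps: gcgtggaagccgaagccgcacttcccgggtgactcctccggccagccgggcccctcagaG
Gm12350: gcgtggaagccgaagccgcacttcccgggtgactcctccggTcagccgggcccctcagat
Zbed5: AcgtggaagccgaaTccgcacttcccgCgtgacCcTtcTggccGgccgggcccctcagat
Within this stretch each of the 2 pseudogenes differs at 1 base and Zbed5 at 7. These are all 7 differences of Zbed5, so its other aligned coding bases matched those of Chchd2. Of all 100-base windows of the Chchd2 coding transcript, 38.7% occurred letter for letter in a transcript of another gene, and of 50-base windows 48.4%. A read in such a window may still be placed at 1 site, for instance through a mate that lies outside it. The windows were compared between transcripts and not against the genome, so these shares do not measure how many reads were lost. The deposited files keep reads aligned to several places apart from the gene rows (7.05% to 7.7% of each file), and such reads are in no gene count. Of the other 9 genes, Mpc1 shared 18.8% of its 100-base windows, all with Mpc1-ps, and the remaining 8 shared none.

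Chchd2 encodes an intermembrane space protein that also acts in the nucleus as a transcriptional regulator. It stood at 85.4, 101.6 and 113.2 CPM in control pools 1 to 3 and at 175.2, 175.6 and 192.2 CPM in stress pools 1 to 3. The lowest stress pool was above the highest control pool, and the spread was wider among the control pools. The means were 100.1 ± 14.0 and 181.0 ± 9.71 CPM (SD, n = 3 pools each), a log2 fold change of 0.85 ± 0.10 SE. This difference chose the gene (edgeR adjusted p = 0.0381) and is given as a description. The call was lost without control pool 2 (adjusted p = 0.247) or any stress pool (0.111 to 0.174), with the log2 fold change at 0.80 to 0.87 in these 4 fits. Between pools of the same replicate number, the stress value was 2.05, 1.73 and 1.70 times the control value.

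The counts of the copies themselves overlapped between groups. Chchd2-ps had 37, 38 and 46 counts in the control libraries and 45, 39 and 23 in the stress libraries, and Gm12350 had 55, 60 and 109 and then 45, 61 and 41. The log2 fold changes were -0.01 ± 0.19 and -0.38 ± 0.25. Zbed5 stood at 3.31 ± 0.157 CPM in control pools and 3.82 ± 0.415 CPM in stress pools (0.21 ± 0.11, edgeR adjusted p = 0.543). The 4 pseudogene rows summed to 1.58% of the Chchd2 counts in control pools and 0.761% in stress pools. With those rows added to Chchd2 the log2 fold change was 0.84, and with Zbed5 added as well it was 0.83. The rows show only where uniquely placed reads fell, and reads set aside as not unique were not analysed here.

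**Figure D1:**
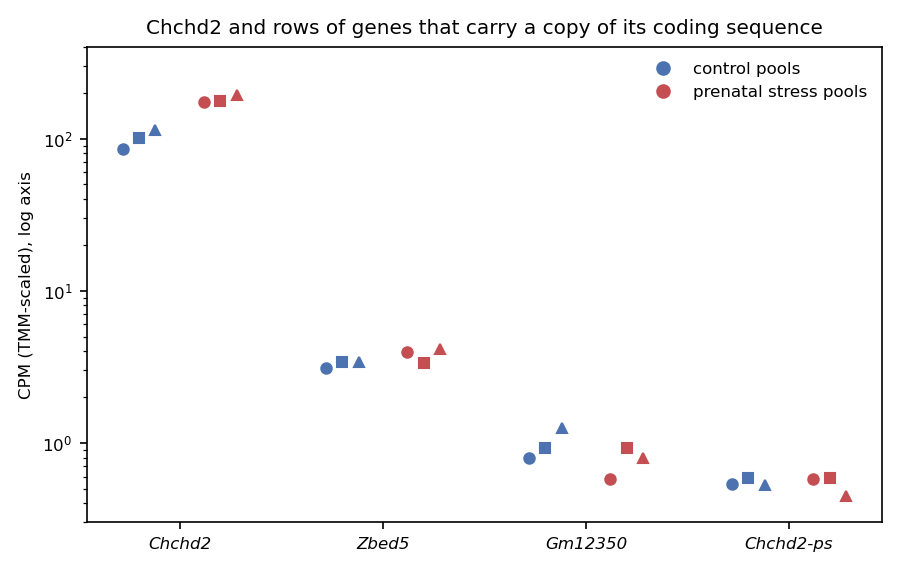
CPM of Chchd2 and of Zbed5, Gm12350 and Chchd2-ps, which carry copies of its coding sequence, on a log axis; each point is 1 pool, with controls in blue, prenatal stress in red, and pools 1 to 3 as circle, square and triangle. Chchd2 stands at 85.4 to 192.2 CPM with no overlap between groups, while the groups overlap for the 3 copies.

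Chchd10 is the closest paralog of Chchd2, forms complexes with it, and is mutated in inherited motor neuron disease. It stood at 19.0, 20.6 and 23.6 CPM in control pools and at 26.4, 26.5 and 24.3 CPM in stress pools. The groups did not overlap, but control pool 3 and stress pool 3 lay 0.723 CPM apart. The log2 fold change was 0.29 ± 0.08, which did not pass over all genes (edgeR adjusted p = 0.331, unadjusted p = 0.00953). Control pool 3, the pool with the high muscle markers, was the highest control for both paralogs. It was also the highest control for Chchd1, Chchd3, Mpc1 and Mpc2. Without it the log2 fold changes were larger, at 0.95 for Chchd2 and 0.38 for Chchd10 (edgeR adjusted p = 0.0263 and 0.275). Without control pool 1 they were smaller, at 0.75 and 0.22 (edgeR adjusted p = 0.0349 and 0.527). Whether muscle RNA entered these values was not tested.

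Within a library, the ratio of Chchd2 to Chchd10 counts does not depend on the scaling of that library. It was 4.49, 4.93 and 4.80 in control pools and 6.65, 6.63 and 7.90 in stress pools. The groups did not overlap, and stress pool 3 was the highest. On the log2 scale the ratio was 2.24 ± 0.07 and 2.81 ± 0.15, a difference of 0.57, so the 2 paralogs did not stand in the same proportion in both groups. The ratio contains the value that chose Chchd2 and is a description.

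Chchd3 and Chchd6 are subunits of MICOS, the complex that holds the necks of the cristae. Chchd3 stood at 56.4, 56.0 and 60.7 CPM in control pools and at 55.4, 55.4 and 55.2 CPM in stress pools (-0.06 ± 0.04, edgeR adjusted p = 0.605). Chchd6 stood at 20.5, 21.7 and 20.7 CPM and then at 22.5, 23.3 and 23.7 CPM (0.14 ± 0.05, adjusted p = 0.366). Neither passed the test, although the groups did not overlap for either gene, with Chchd3 lower and Chchd6 higher in stress pools. The ratio of Chchd3 to Chchd6 counts was 2.75, 2.58 and 2.94 in control pools and 2.46, 2.38 and 2.33 in stress pools.

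Chchd4, the oxidoreductase of the import route, stood at 14.1, 15.3 and 14.0 CPM in control pools and at 14.1, 15.4 and 15.3 CPM in stress pools. The groups overlapped, and the log2 fold change was 0.05 ± 0.06 (edgeR adjusted p = 0.838). Pools 1 and 2 of the 2 groups were nearly level for this gene, with stress over control at 1.00 in both.

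The remaining CHCH genes went in different directions. Chchd7, related to the yeast factor Cox23 of cytochrome c oxidase assembly, stood at 14.6, 14.2 and 14.0 CPM in control pools and at 17.4, 16.7 and 16.7 CPM in stress pools. The groups were 2.16 CPM apart, and the ratio between same-numbered pools was 1.20, 1.18 and 1.19. The log2 fold change was 0.25 ± 0.05. Among the 8 genes taken by name it had the smallest unadjusted p (0.00108), but it did not pass over all genes (edgeR adjusted p = 0.21); the DESeq2 Wald test called it (adjusted p = 0.0231), and over all 14 alternatives its adjusted p ranged from 0.0231 to 0.634. Chchd1, a protein of the small subunit of the mitochondrial ribosome, stood at 24.1, 23.9 and 24.9 CPM and then at 22.8, 23.1 and 23.0 CPM. Its groups did not overlap, and the difference was -0.08 ± 0.04 (edgeR adjusted p = 0.493). Chchd5 was the lowest of the 10 by counts, at 7.94, 9.06 and 8.79 CPM in control pools and 8.32, 8.10 and 7.94 CPM in stress pools, with overlapping groups (-0.08 ± 0.07, edgeR adjusted p = 0.724).

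Mpc1 and Mpc2 form the carrier together as partner subunits. Mpc2 stood at 27.7, 28.2 and 29.3 CPM in control pools and at 38.0, 37.2 and 40.6 CPM in stress pools. The groups were 7.91 CPM apart, and the stress value was 1.37, 1.32 and 1.39 times the control value between same-numbered pools. The means were 28.4 ± 0.796 and 38.6 ± 1.80 CPM (SD, n = 3 pools each), a log2 fold change of 0.44 ± 0.05, and this difference chose the gene (edgeR adjusted p = 0.0244). Every pool left out in turn kept its value between 0.40 and 0.46 and ended the call (adjusted p = 0.0698 to 0.22).
Mpc1 stood at 86.8, 88.7 and 93.5 CPM in control pools and at 88.0, 83.8 and 88.0 CPM in stress pools. The groups overlapped, and the log2 fold change was -0.05 ± 0.04 (edgeR adjusted p = 0.687). The processed pseudogene Mpc1-ps, 99.7% identical over 330 bases, had 3310 counts against 36819 for Mpc1, and its own groups overlapped (-0.08 ± 0.09).

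The ratio of Mpc2 to Mpc1 counts was the steadiest of the 3 ratios among controls. It was 0.319, 0.318 and 0.313 in control pools and 0.431, 0.444 and 0.461 in stress pools. On the log2 scale that was -1.66 ± 0.01 and -1.17 ± 0.05, a difference of 0.49. With 1 pool left out in turn, the difference was 0.47 to 0.51. The ratio contains the value that chose Mpc2 and is a description.

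**Figure D2:**
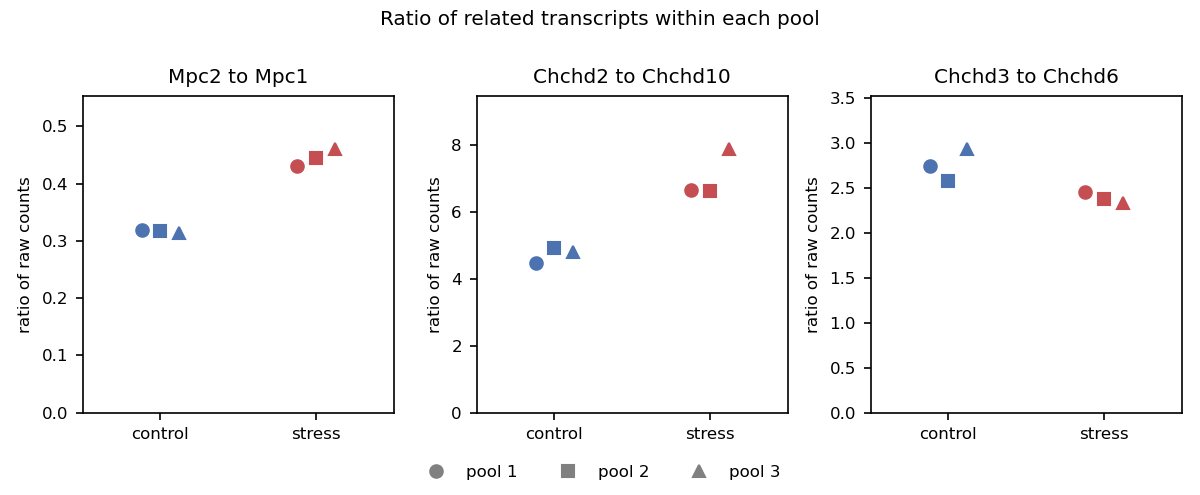
Ratio of raw counts within each pool for Mpc2 to Mpc1, Chchd2 to Chchd10 and Chchd3 to Chchd6; each point is 1 pool, with controls in blue, prenatal stress in red, and pools 1 to 3 as circle, square and triangle. The groups do not overlap in any panel, and the Mpc2 to Mpc1 ratio goes from 0.313 to 0.319 in controls to 0.431 to 0.461 after prenatal stress.

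Promoter sequences of the carrier pair are shown because the partners differed in these data. RefSeq promoters of GRCm38.p6, from 250 bases before to 50 bases after a start, were found for 8 of the 10 genes. Chchd2 and Chchd7 had no entry. The Mpc2 promoter lies at chr1:165461010-165461309 on the + strand, and the first of 2 Mpc1 promoters at chr17:8283537-8283836 on the + strand. Capitals mark matches, on either strand, to GGGCGG (the GC box), CCAAT or CCGGAAG (the core bound by ETS factors such as GABPA).
Mpc2: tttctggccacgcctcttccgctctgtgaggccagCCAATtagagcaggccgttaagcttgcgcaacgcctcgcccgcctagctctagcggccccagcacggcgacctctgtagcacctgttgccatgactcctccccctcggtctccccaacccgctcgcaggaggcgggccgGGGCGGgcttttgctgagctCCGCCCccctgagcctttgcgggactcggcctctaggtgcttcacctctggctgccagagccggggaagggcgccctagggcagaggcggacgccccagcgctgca
Mpc1: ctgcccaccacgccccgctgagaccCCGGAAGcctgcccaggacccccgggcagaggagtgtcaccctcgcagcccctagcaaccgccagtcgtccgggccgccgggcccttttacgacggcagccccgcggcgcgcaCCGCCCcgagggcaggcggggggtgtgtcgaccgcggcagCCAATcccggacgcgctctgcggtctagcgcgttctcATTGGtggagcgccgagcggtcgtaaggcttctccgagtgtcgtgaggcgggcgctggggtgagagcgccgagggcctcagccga
Mpc2 had 2 matches to GGGCGG and 1 to CCAAT. The Mpc1 promoter shown had 1 match to GGGCGG, 2 to CCAAT and 1 to CCGGAAG. The second Mpc1 promoter, at chr17:8284204-8284503, had 1 match to GGGCGG and 0 to the other 2. Of the 32851 promoters in the table, 35.7% held GGGCGG, 37.4% CCAAT and 8.86% CCGGAAG. The NRF1 motif by its palindromic consensus (found in 4.6% of promoters), the letters TCAAGGTCA (estrogen-related receptors, 0.423%) and TGACGTCA (cAMP response element, 1.79%) were searched too and were in neither window. None of the searched letters overlapped another within these 2 windows, and a match is no evidence of binding.

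Counted over all 10 genes, 2 passed the edgeR test, Chchd2 and Mpc2, both higher, against 0.129% of the 20146 genes tested (0.0844% higher and 0.0447% lower). This count is fixed by how they were chosen. Of the 8 genes taken by name 0 passed, and 3 had an unadjusted p under 0.05 (Chchd6, Chchd7 and Chchd10, all higher), where 11.1% of all genes tested did (6.01% higher and 5.11% lower). The DESeq2 Wald test called 1 of the 8, Chchd7. The groups did not overlap for 5 of the 8 (3 higher and 2 lower), against 18.1% of all genes (9.33% higher and 8.76% lower). The median log2 fold change of the 8 was -0.00, with 4 positive and 4 negative values from -0.08 to 0.29, where 52.3% of all genes had a positive value and their median was 0.01. The test at which Chchd2 and Mpc2 were chosen had Isl2 last inside its threshold (adjusted p = 0.0443) and Lgals3 first outside it (0.0532).

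**Figure D3:**
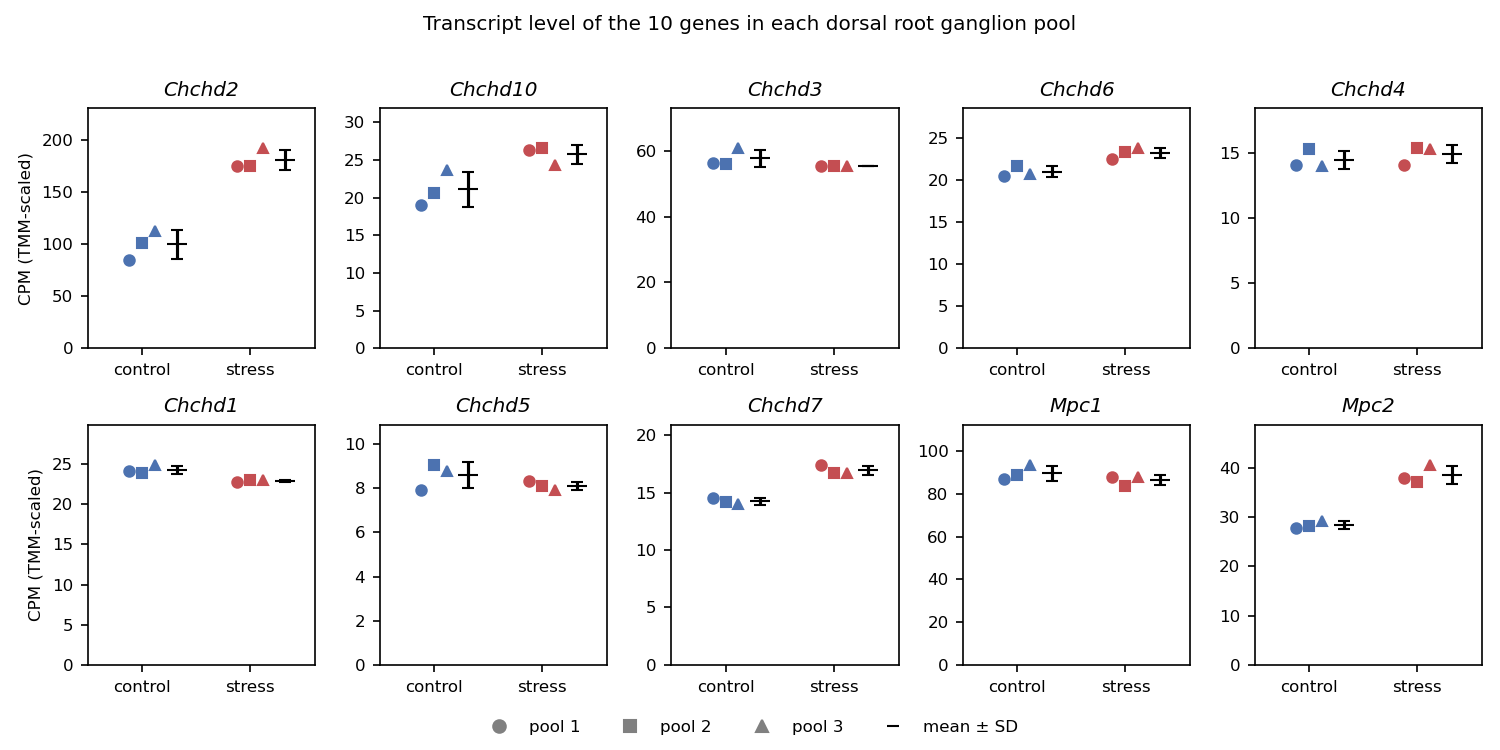
CPM of each of the 10 genes in 3 control pools (blue) and 3 prenatal stress pools (red), with pools 1 to 3 as circle, square and triangle and the mean ± SD in black; each panel has its own axis from 0. Chchd2 and Mpc2 are clearly separated by group, while Chchd4, Chchd5 and Mpc1 overlap.

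**Figure D4:**
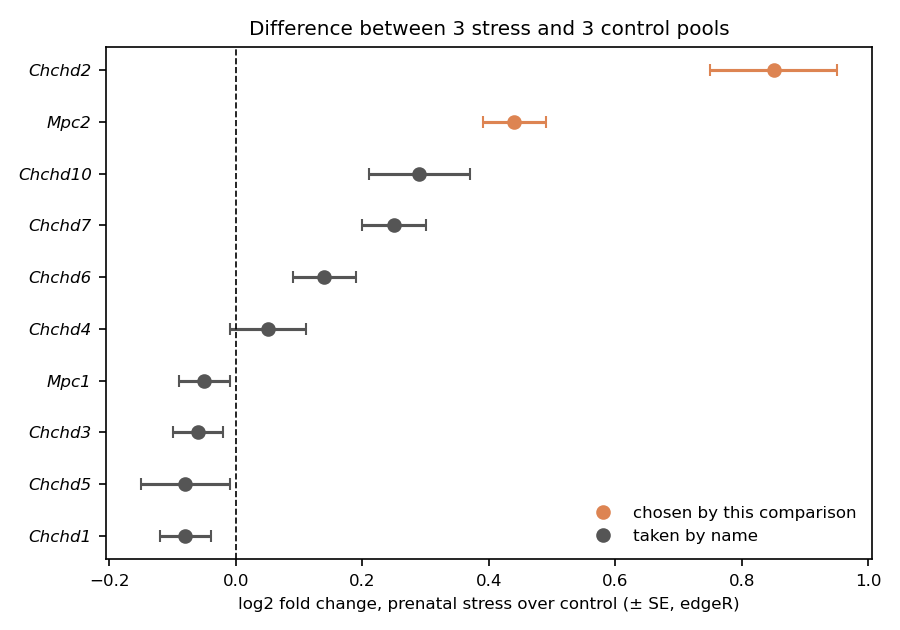
Log2 fold change of prenatal stress over control for the 10 genes with its SE from edgeR. Chchd2 at 0.85 and Mpc2 at 0.44, in orange, were chosen by this comparison, and the 8 grey genes taken by name lie between -0.08 and 0.29.

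Levels can be compared between genes only per transcript length. Reads that were not uniquely placed are in no gene count. Of 100-base windows, 38.7% of those of Chchd2 and 18.8% of those of Mpc1 were shared with other genes. Whether this affected the order below was not tested. Per kb of the longest protein-coding transcript, the order in control pools was Chchd2 (109 ± 15.3 CPM per kb), Mpc1 (93.3 ± 3.60), Chchd1 (39.4 ± 0.871), Chchd3 (37.2 ± 1.67), Mpc2 (27.7 ± 0.777), Chchd6 (18.7 ± 0.561), Chchd7 (16.0 ± 0.327), Chchd10 (14.2 ± 1.56), Chchd5 (6.49 ± 0.440) and Chchd4 (4.17 ± 0.207). Neighbours whose pools overlapped were Chchd2 with Mpc1, Chchd1 with Chchd3, and Chchd7 with Chchd10. In stress pools Chchd2 stood at 198 ± 10.6 CPM per kb, apart from Mpc1 at 90.1 ± 2.53. Mpc2 there reached 37.6 ± 1.75 CPM per kb, and its pools overlapped those of Chchd1 at 37.3 ± 0.215. Per kb of the longest transcript of any type, which is a retained-intron transcript for Chchd2, Mpc2 and Chchd6 and one marked for nonsense-mediated decay for Chchd7, the highest control level was that of Mpc1 (93.3 CPM per kb) and Chchd2 stood at 48.4, so the place of Chchd2 above Mpc1 in controls depends on the transcript chosen.

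The spread between pools differed among the genes. The coefficient of variation among control pools was largest for Chchd2 (14.0%) and Chchd10 (11.0%) and lay between 2.04% and 6.78% for the other 8. Among stress pools it was 0.178% for Chchd3, and 5.37% at most, for Chchd2. Counting error alone at the smallest count gives 1.3% for Chchd2, 2.82% for Chchd10 and 4.94% for Chchd5. The coefficient of variation among controls was above counting error for all of the 10 genes but Chchd1 (2.21% against 2.90%) and Chchd7 (2.04% against 3.40%).

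The other genes of the same import route, complexes and pathway were read from 6 lists made by known function, with 93 of 94 genes tested. None passed the edgeR test, against 0.129% of all genes. The DESeq2 Wald test called 4 (Coa6, Cox6b1, Uqcrh and Ldha). At an unadjusted p under 0.05, 9 were higher and 12 lower, together 22.6% where 11.1% of all genes tested were. The groups did not overlap for 33.3% of the 93 (12 higher and 19 lower), against 18.1% of all genes. Most genes named below were picked for a small p, which largely fixes that their groups do not overlap. The median log2 fold change over the 93 was -0.02.

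Of 15 other genes listed for the twin CX9C cysteine pattern that Chchd4 oxidises, or for one like it, 6 had positive and 9 negative values, with a median of -0.05. The cysteine spacing of these proteins was not checked here. Coa6, a copper-handling assembly factor of cytochrome c oxidase, stood at 9.69, 9.83 and 9.86 CPM in control pools and at 12.5, 12.1 and 12.5 CPM in stress pools (0.34 ± 0.05, edgeR adjusted p = 0.118). The structural subunits Cox6b1 of cytochrome c oxidase (192 ± 4.40 and 175 ± 3.95 CPM, -0.14 ± 0.03) and Uqcrh of complex III (179 ± 1.22 and 164 ± 3.12 CPM, -0.13 ± 0.03) had adjusted p of 0.277 and 0.252. The groups did not overlap for these 3 genes, with Coa6 higher and the 2 subunits lower in stress pools. Over the 15 genes the groups did not overlap for 40.0% (2 higher and 4 lower).

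Of 8 tested partners of the import route (the sulfhydryl oxidase Gfer, the Chchd4 anchor Aifm1 and small Tim chaperones), 2 had positive and 6 negative values, with a median of -0.05 and a range from -0.10 to 0.11. Timm8b had the smallest p (33.8 and 31.5 CPM, -0.10 ± 0.04, edgeR adjusted p = 0.397), followed by Timm10 (-0.07 ± 0.04) and Timm10b (0.11 ± 0.08). Of 10 other subunits of MICOS and of the outer membrane bridge it binds, 7 were negative, with a median of -0.04. Mtx3, a metaxin of the outer membrane, stood at 67.4 and 74.5 CPM (0.15 ± 0.04, edgeR adjusted p = 0.29), Micos13 at -0.12 ± 0.06 and Micos10 at -0.07 ± 0.04.

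Genes known to work with Chchd2 or Chchd10 were split 5 to 5 by sign, with a median of 0.03. The fusion GTPase Opa1 (194 and 212 CPM, 0.13 ± 0.04), the prohibitin Phb2 (0.12 ± 0.04) and its partner Stoml2 (0.10 ± 0.04) did not overlap between groups and had edgeR adjusted p of 0.366 to 0.414. The other prohibitin, Phb, had practically the same p as Stoml2 in the opposite direction, at 88.0 and 82.5 CPM with no overlap (-0.09 ± 0.04, edgeR adjusted p = 0.414). Cox4i2, the oxygen-sensitive isoform gene whose promoter Chchd2 is known to activate, stood at 0.591, 0.647 and 0.711 CPM in control pools and at 0.801, 0.683 and 0.562 CPM in stress pools, with overlapping groups (0.08 ± 0.19). Phb and Cox4i2 were named after their values were seen.

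Of 29 proteins of the small mitochondrial ribosomal subunit, where Chchd1 sits, 15 had positive and 14 negative values, with a median of 0.00. Those of smallest p were Mrps22 (13.8 and 16.3 CPM, 0.24 ± 0.06), Mrps15 (0.15 ± 0.04) and Mrps26 (0.14 ± 0.04), with edgeR adjusted p of 0.273 to 0.337. At an unadjusted edgeR p under 0.05, 3 of the 29 were higher and 4 were lower. The groups did not overlap for 4 higher and 7 lower. Chchd1 itself stood at -0.08.
Of 21 genes that make or use pyruvate, 8 had positive and 13 negative values, with a median of -0.05. Lactate dehydrogenase Ldha (438 and 401 CPM, -0.13 ± 0.03) and pyruvate kinase Pkm (1217 and 1117 CPM, -0.12 ± 0.04) were lower in all 3 stress pools than in any control pool. Bsg, the chaperone of lactate and pyruvate transporters of the plasma membrane, was the reverse (283 and 301 CPM, 0.09 ± 0.03), and these 3 genes had edgeR adjusted p of 0.311 to 0.374. Slc16a3, a lactate exporter named after its values were seen, had the largest negative value (-0.73 ± 0.42) and stood at 6.67 CPM in control pool 3, the pool with the high muscle markers, and at 1.72 to 2.81 CPM in the other 5. The part of muscle RNA in this value was not tested.

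**Figure D5:**
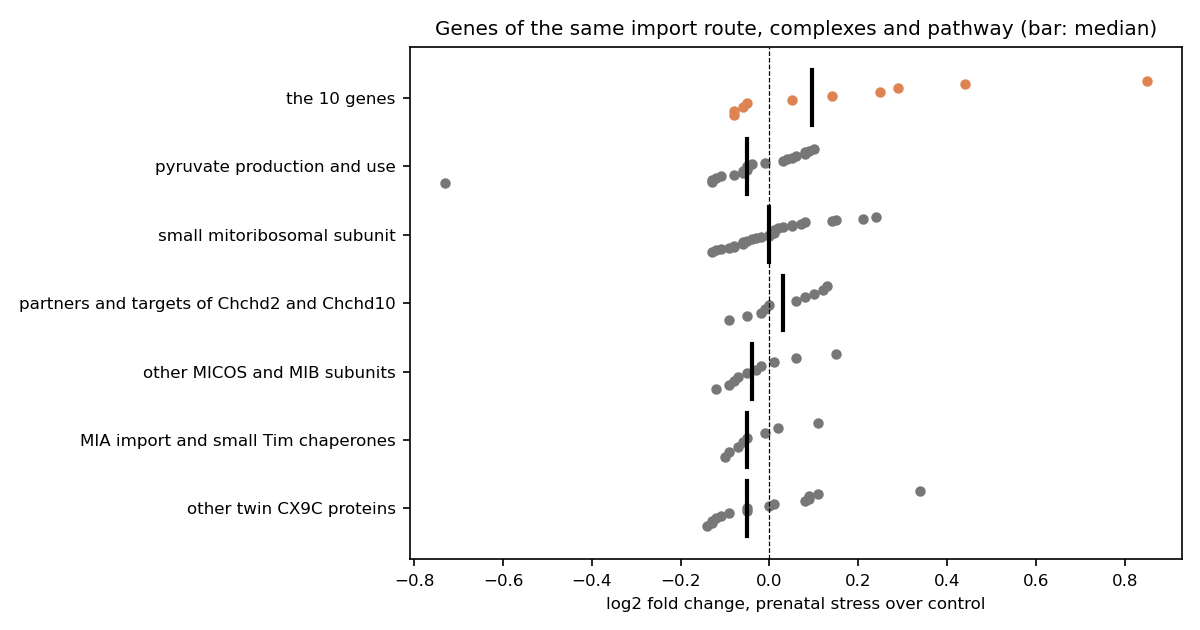
Log2 fold change of prenatal stress over control for each tested gene of the 6 related lists (grey) and for the 10 genes (orange), with the median of each list as a black bar. The list medians lie between -0.05 and 0.03, and the point at -0.73 is Slc16a3.

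The genes whose log2 CPM followed that of Chchd2 most closely over the 6 pools, among 10370 genes with a mean of at least 10 CPM, were Casz1, Sf3b5, Cox6a1, Stk16 and Hdac4 (Pearson r of 0.990 to 0.996). Those closest to Mpc2 were Fhip1b, Mrps15, Ndufab1, Mrfap1 and Gatc (0.992 to 0.993). Their log2 fold changes were 0.11 to 0.43, a direction fixed by likeness to genes chosen for being higher in stress pools. Among them Cox6a1 (0.37, edgeR adjusted p = 0.0175) and Ndufab1 (0.43, edgeR adjusted p = 0.0149) themselves passed the test over all genes, and the others did not. Chchd2 and Mpc2 followed each other at r = 0.982 over all pools and at 0.75 after the group means were removed. That value is not particular to the pair: with the group means removed, Mpc1, whose groups overlapped, followed Chchd2 at 0.80 and Mpc2 at 0.76. Chchd10 and Chchd3 each followed Chchd2 at 0.68, but Chchd10 followed Mpc2 at 0.13 and Chchd3 followed it at 0.45. Chchd1 followed Chchd2 at 0.61 and Mpc2 at 0.44. For the same 2 genes, Chchd6 stood at 0.37 and 0.32, Chchd4 at 0.17 and 0.07, and Chchd7 at -0.76 and -0.52. With 6 pools and the group means removed, each such r is imprecise. All libraries enter every such value. Because Chchd2 and Mpc2 were both chosen for a group difference, a high r between them over all pools is partly fixed by that choice.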

How the data were processed

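RNA was poly-A selected from 3000 ng per pool (integrity numbers 8.2 to 8.6) and made into stranded paired-end libraries with 11 PCR cycles, per the labels' protocols. The authors deposited raw counts per gene symbol, 1 file per pool. FastQC, STAR 2.4 and HTSeq 0.9.1, with the builds GRCm39 and mm10, are named in the submitters' processing notes; the build behind these counts and the counter's strand setting were each not given in the sources used here. Depending on that setting, reads on overlapping genes may have been set aside as ambiguous (1.63% to 1.69% of each file). Antisense reads may also have been counted for the gene on the opposite strand. Rows that name no gene (15.3% to 16.2% of each file) were left out.

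The group difference was fitted for all genes by edgeR 4.0.16 (R 4.3.3, TMM, filterByExpr with a minimum count of 10, quasi-likelihood F test, Benjamini-Hochberg adjusted p under 0.05 over 20146 genes, SE as the size of the log2 fold change divided by the square root of F). DESeq2 1.42.0 was an alternative. No gene list was tested as a set. The members, lists and tests were chosen with earlier results of these data known. Named genes were the 10 members, up to 3 genes of smallest p per related list and any that passed, pseudogenes that match a member, and the 5 genes most like Chchd2 and Mpc2. Copies were found with minimap2 2.31-r1302 in GENCODE M21 transcripts (at least 90% identity over 200 bases). GC content and length were known for 95.2% of genes tested and for all 10 members. The test was checked on simulated data. No 2 libraries agreed within sampling noise (chi-square per degree of freedom 10.02 to 32.89 over 15 pairs). Replicate numbers 1 to 3 occur in both groups, but no label states that they pair the pools. The deviations of same-numbered pools from their group means correlated at 0.34, 0.22 and 0.13 across genes. Those of differently numbered pools correlated at -0.3 to 0.12. Control pool 3 was about as close to stress pool 2 (0.12) as to stress pool 3 (0.13), so these values do not settle a pairing. A fit with the number as a block was run beside the main one, which used no pairing.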

Additional observations from a re-analysis of the deposited data

How the results depend on the processing

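All 10 genes kept the sign of their log2 fold change in all 14 alternatives, which spanned 0.75 to 0.95 for Chchd2 and 0.40 to 0.46 for Mpc2. The replicate block ended no call and made none among the 10 (Chchd2 0.86, adjusted p = 0.0127; Mpc2 0.44, adjusted p = 0.0282), and neither did a correction for GC content and length (0.87 and 0.43), with or without the block. Leaving out 1 pool did. Without control pools 1 to 3 and stress pools 1 to 3, in that order, the edgeR adjusted p of Mpc2 was 0.14, 0.22, 0.0804, 0.174, 0.0719 and 0.0698, and that of Chchd2 was 0.0349, 0.247, 0.0263, 0.174, 0.146 and 0.111. The number of the 10 genes called was 0 to 1 in these fits, and the number of all genes called was 2 to 14 against 26. It was 22 with the block (18 shared), 49 without the low-count filter and 330 with the DESeq2 Wald test, which also called Chchd7 and 4 genes of the related lists where edgeR called 0. Adding Zbed5 to Chchd2, the joint correction, pseudogene counts in the ratios and coding transcript lengths were chosen after seeing the data. The 3 pools per group limit precision, and for Chchd1, Chchd3, Chchd5, Chchd6 and Chchd7 counting error at the smallest count was larger than the spread between pools in at least 1 group. An exact permutation test of a single value over 3 against 3 pools cannot go below 0.1, two-sided, so none was run.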
